A study of Mus musculus with 4 samples.

Results

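Regulatory T cells with little CD25 on their surface were compared with conventional CD4 T cells across all measured genes. The CD25lo Foxp3+ population was set against the CD25- Foxp3- population, which are 2 of the 4 CD4+ T cell populations of the series, each read on 1 array. All 4 came from 1 pool of spleens and lymph nodes. The donors were 25 male B6/129 F2 animals, aged 5 to 8 weeks, with the Foxp3-GFP knock-in, by which green fluorescent protein (GFP) marks cells that express Foxp3. Cells bearing CD8, B220, CD11b, NK1.1 or DX5 had been depleted, and the CD4+ cells left were sorted on GFP and CD25. No treatment is given in the labels, and every population carries the knock-in, so no group is free of it. The other populations, CD25hi Foxp3+ and CD25+ Foxp3-, are given beside the compared values where they help to place a gene. Since a group is 1 array of 1 pool, the spread between mice and between arrays is unknown, differences are given as sizes, and none was tested.

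Foxp3 is the transcription factor that sets the program of regulatory T cells (Treg cells), which hold back the responses of other T cells. CD25, encoded by Il2ra, is the alpha chain of the high-affinity receptor for IL-2, on which Treg cells depend for their upkeep. Treg cells that recirculate through lymphoid organs are known to carry much CD25, whereas Treg cells that have been activated and have moved toward tissues are known to carry less and to express Klrg1, Prdm1 and receptors for inflamed tissue. Most conventional CD4 T cells without CD25 are resting, naive cells.

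The values are array intensities on a linear scale, 1 per probe set, where a probe set is a group of short probes for 1 transcript. Readings under 10.1 were set to that floor, and a gene was measured if it reached 32.5 on at least 1 of the 4 arrays, which 9622 of 18193 genes did. The median of all probe sets was 15.2 in CD25lo Foxp3+ and 15.6 in CD25- Foxp3- cells, and the number of arrays limits the precision. Foxp3 read 1117 in CD25lo Foxp3+ and 17.6 in CD25- Foxp3- cells, and 1308 and 16.8 in CD25hi Foxp3+ and CD25+ Foxp3- cells. Il2ra read 288 against 22.3, with 1562 in the CD25hi Foxp3+ and 283 in the CD25+ Foxp3- population, and its other probe set read 84.2 against 9.56. Both genes followed the sort on the compared arrays, and both are left out of the counts of gene lists.

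Genes that define CD4 T cells read alike on the 2 arrays. Cd3e, a chain of the T cell receptor complex, read 806 in CD25lo Foxp3+ and 808 in CD25- Foxp3- cells, and Cd4 read 2740 and 2948. Cd3d, Cd3g, Cd5, Cd28 and Zap70 also lay within 2-fold. Of the 8 identity genes measured, Thy1 alone was at least 2-fold apart, at 3724 against 8067, which is 2.17-fold lower in CD25lo Foxp3+ cells. Among 13 housekeeping genes none was at least 2-fold higher and only Polr2a, at 189 against 414, was lower.

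Markers of several other cell types read lower in CD25lo Foxp3+ cells. Of 15 measured markers of CD8 T and NK cells, 13 were at least 2-fold lower and none was higher. Of the 11 that reached 32.5 on both arrays 11 were lower. The intensities of the list summed to 1039 in CD25lo Foxp3+ and 4006 in CD25- Foxp3- cells. Klrd1, the CD94 chain of NK receptors, read 40.2 against 422, Cd8a 83.7 against 351 and Cd8b1 90.8 against 422. Of 10 B cell markers 6 were lower (4 of the 6 that reached 32.5 on both arrays), with sums of 1126 and 2828, among them Ms4a1 (CD20) at 24.7 against 145 and the MHC class II gene H2-Aa at 375 against 1098. Of 6 red cell and platelet markers 5 were lower, with sums of 513 and 1198, but only 2 of the 6 reached 32.5 on both arrays, and 1 of these was lower. Slc4a1, the anion exchanger of red cells, read 29.3 against 213. Of 12 markers of myeloid and dendritic cells 1 was higher and 3 were lower, with sums of 1983 and 2390, and of 6 plasma cell markers 1 was higher and 2 were lower. The summed plasma cell level, 13162 and 18079, was carried by Ighm, at 9906 and 14192, while Sdc1 (CD138) read 11.5 and 31.3. The probe sets of Ighm conflicted, with another at 12596 and 9201 and a dimmer one at 58.5 and 722. None of 5 gamma delta T and NKT cell markers was 2-fold apart, with sums of 4153 and 2887. The defining genes Cd79a, Pax5, Itgam, Itgax and Hba-a1 stayed under the filter. The only stromal marker measured was not 2-fold apart. In a bulk sample, fewer cells of a type and less RNA per cell cannot be told apart. The part of such cells in the results below was not tested. With every such marker left out of the counts, 873 genes were higher and 633 lower. This only drops the listed genes and leaves the value of every other gene as it was.

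More genes were higher than lower in CD25lo Foxp3+ cells. At least 2-fold higher were 875 genes, 9.09% of the 9622 measured, and at least 2-fold lower were 662, 6.88%. These shares over all measured genes are the ones to hold beside the counts of each gene list. At 4-fold the counts were 235 (2.44%) and 112 (1.16%), and at 8-fold 79 (0.821%) and 28 (0.291%). The median log2 difference over all measured genes was -0.05. Of the higher genes, 37 stood at the floor in CD25- Foxp3- cells, and of the lower genes, 10 stood at the floor in CD25lo Foxp3+ cells, so their folds are lower bounds and are written as at least. Among the 8619 genes that reached 32.5 on both arrays, 604 (7.01%) were higher and 500 (5.80%) lower.

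**Figure D1:**
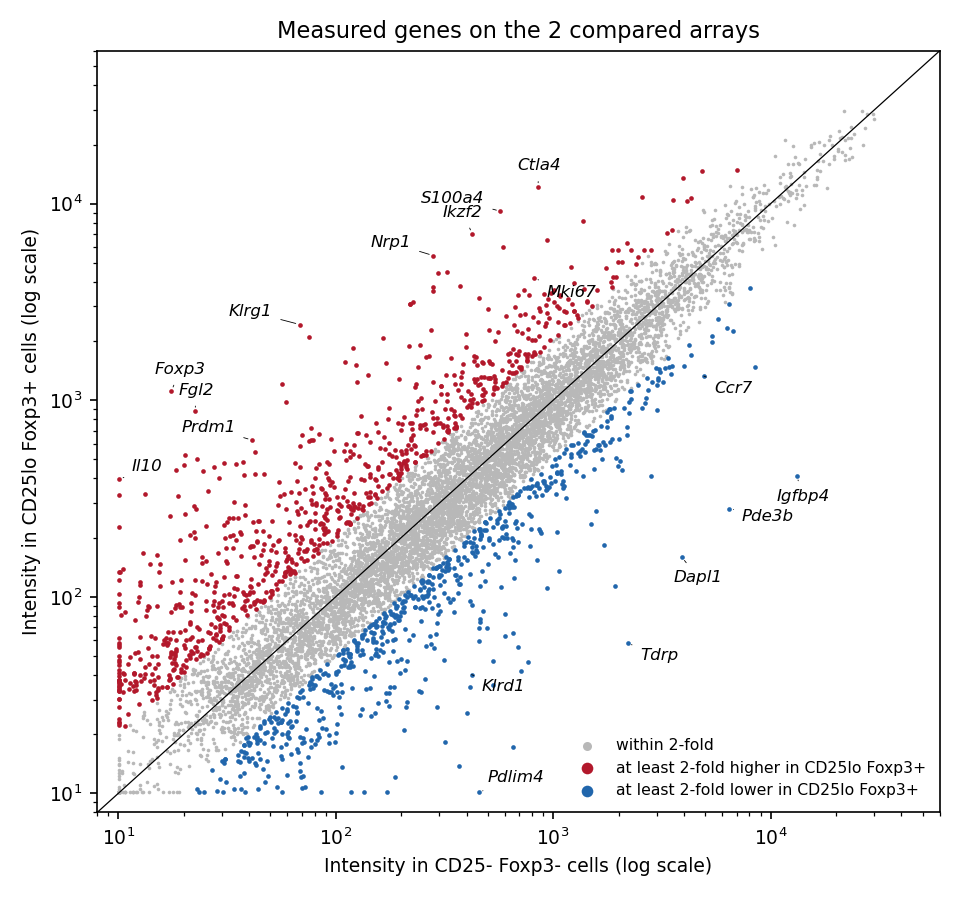
Intensity of each of the 9622 measured genes in CD25- Foxp3- cells (x axis) and in CD25lo Foxp3+ cells (y axis), both on log scales, with readings under 10.1 drawn at 10.1. The 875 red points are at least 2-fold higher and the 662 blue points at least 2-fold lower in CD25lo Foxp3+ cells, and each point is 1 gene on 1 array a side.

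The same RNA was read by a second probe set for 4425 genes. Of the 355 higher genes among them, the second probe set was also higher in 328 (92.4%) and at least 2-fold higher in 207 (58.3%), where 8.79% of all second probe sets were. For the 231 lower genes, 215 (93.1%) went the same way and 123 (53.2%) passed 2-fold, against 6.01% of all. From 4-fold up the shares were larger, with 78 of 95 higher genes (82.1%) and 33 of 36 lower genes (91.7%) past 2-fold in the second probe set. A second probe set shares the array and the RNA with the first, so it checks the reading of the gene and not the spread between samples.

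**Figure D2:**
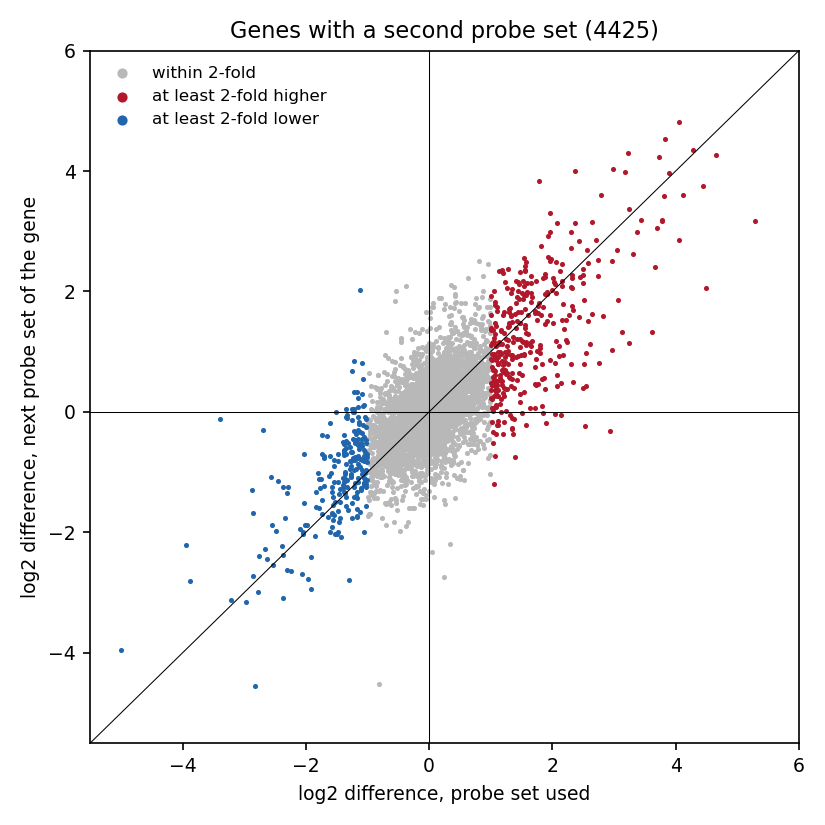
log2 difference between CD25lo Foxp3+ and CD25- Foxp3- cells in the probe set used (x axis) and in the gene's next probe set (y axis), 1 point for each of 4425 genes. Red and blue points are at least 2-fold higher and lower by the probe set used, and the diagonal marks equal differences.

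The genes known to mark Treg cells were higher almost throughout. Of the 34 listed, 32 had a probe set and passed the filter, and 30 of these were at least 2-fold higher and none lower, with a median log2 difference of 3.56 against -0.05 for all measured genes. Of the 25 that reached 32.5 on both arrays, 23 were higher. The exceptions were Cd81, a tetraspanin, at 534 against 283, and the matrix protein gene Ecm1, at 263 against 229.

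Among the secreted and surface products through which Treg cells are known to act, Il10, the anti-inflammatory cytokine, read 395 in CD25lo Foxp3+ cells and 8.55, under the floor, in CD25- Foxp3- cells, a difference of at least 39.1-fold. Fgl2, a fibrinogen-like protein that Treg cells can secrete, read 878 against 22.6 (38.9-fold), and 296 against 32.8 by its other probe set. Itgb8, the integrin chain that helps release active TGF-beta, read 528 against 20.2 (26.1-fold). Each of these was also higher in CD25lo than in CD25hi Foxp3+ cells, which read 207 for Il10, 335 for Fgl2 and 240 for Itgb8. Entpd1 (CD39) and Nt5e (CD73), the enzymes that turn extracellular ATP into adenosine in sequence, read 327 against 18.8 and 3086 against 219. Ctla4, which takes the ligands of CD28 off antigen-presenting cells, read 12173 against 852 (14.3-fold). Gzmb, the protease granzyme B, read 422 against 46.6 (9.05-fold).

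Receptors of the list were higher as well. Klrg1, an inhibitory receptor for cadherins, read 2429 against 68.4 (35.5-fold), and Nrp1, neuropilin 1, read 5447 against 281 (19.4-fold). Itgae, the CD103 chain that pairs with beta 7 integrin, read 4421 against 296 (14.9-fold). Il1r2, a decoy receptor for IL-1, read 439 against 24.6 (17.8-fold), and CD25+ Foxp3- cells read 322, so for this gene the CD25- Foxp3- array was the low one of the 4. Of the TNF receptor family, Tnfrsf9 (4-1BB) read 1558 against 110 and Tnfrsf4 (OX40) 3087 against 221. In the transcription factors Ikzf2 (Helios) and Ikzf4 (Eos), both Ikaros family members, the readings were 7034 against 424 (16.6-fold) and 543 against 42.7 (12.7-fold). Smaller differences were seen in Izumo1r, the folate receptor 4 gene, at 3441 against 1079 (3.19-fold), and in Socs2, a feedback inhibitor of cytokine signalling, at 197 against 70.2 (2.80-fold).

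**Figure D3:**
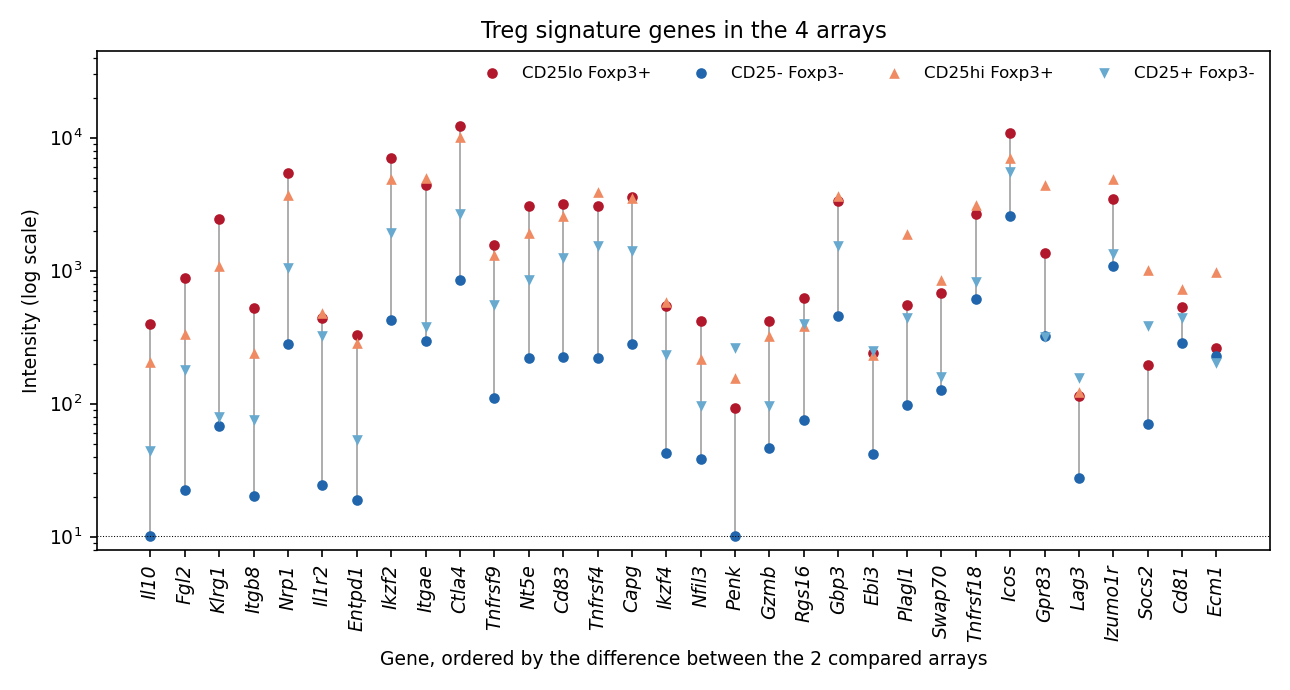
Intensity (log scale) of the 32 measured Treg signature genes in each of the 4 arrays, ordered by the difference between the compared arrays, which a grey line joins. CD25lo Foxp3+ cells lie above CD25- Foxp3- cells for each gene, and Penk, Lag3 and Ebi3 read higher in CD25+ Foxp3- than in either Foxp3+ population. Readings under 10.1 are drawn at 10.1.

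Genes tied to the effector state of Treg cells were higher in 20 of 23 measured members and lower in none, with a median log2 difference of 2.53. The list had 28 genes, 24 with a probe set, and 22 of the measured members stand on other lists too. Where both arrays reached 32.5, 17 of 20 members were higher. In the pair of CD25hi Foxp3+ against CD25+ Foxp3- cells, 7 members were higher and 3 lower, with a median of 0.38. Prdm1 (Blimp-1), the repressor that works with Irf4 in effector Treg cells, read 627 against 41.2 (15.2-fold), while CD25hi Foxp3+ cells read 280. Ccr2, a receptor that leads cells to inflamed tissue, read 1519 in CD25lo Foxp3+ cells, 124 in CD25- Foxp3-, 505 in the CD25hi Foxp3+ and 360 in the CD25+ Foxp3- population, and 275 against 110 on the compared arrays by another probe set. Cxcr3, the receptor for interferon-induced chemokines, read 2911 against 502 (5.79-fold), and 826 and 1221 in CD25hi Foxp3+ and CD25+ Foxp3- cells. Rora, which encodes the nuclear receptor ROR alpha, read 1278 against 195 (6.55-fold). Myo1f, an unconventional myosin, read 1239 against 125, with 257 and 278 in CD25hi Foxp3+ and CD25+ Foxp3- cells, so the CD25lo Foxp3+ array stood above the other 3. Irf4 and Batf, partners at composite DNA sites, differed less, at 900 against 250 (3.60-fold) and 1544 against 474 (3.26-fold). The highest Irf4 reading was 1579, in CD25+ Foxp3- cells. The 3 members that were not 2-fold apart were Relb, Il18r1 and Id2, an inhibitor of E proteins, which read 1589 against 2858.

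Transcription factors of T cell lineages differed gene by gene. Of 32 measured, 16 were at least 2-fold higher and 2 lower, with a median log2 difference of 0.92. Maf, a factor tied to Il10 expression, read 6040 against 585 (10.3-fold) but 1942 in the CD25hi Foxp3+ and 3904 in the CD25+ Foxp3- population, the order of the second pair being the opposite. By another Maf probe set the readings were 192 and 44.5, and 159 and 105 in the second pair, which was not reversed there. Hif1a, the factor of the response to low oxygen, read 8184 against 1376 (5.95-fold), and Ahr, the aryl hydrocarbon receptor, 832 against 131 (6.37-fold). Tox, an HMG-box factor, read 745 against 252. For Gata3, the factor of Th2 cells, the readings were 966 and 426 (2.27-fold). Tbx21 (T-bet), the factor of Th1 cells, read 67.6 against 20.2 (3.34-fold), and its highest reading was 227, in CD25+ Foxp3- cells. Lower were Eomes, a T-box factor of cytotoxic and memory cells, at 35.8 against 106 (2.95-fold), and Epas1 (HIF-2 alpha), at 47.8 against 315 (6.59-fold).

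Costimulatory and inhibitory molecules, on a list of the CD28 and B7 families, were higher in 9 of 16 measured members and lower in none. Their median log2 difference was 1.47. The list also holds genes outside these families, and Lag3, Havcr2, Cd200 and Cd200r1 are among the 9 higher. The list held 20 genes, 19 with a probe set. Of the 12 members that reached 32.5 on both arrays, 5 were higher and the median was 0.77. Icos, a costimulatory receptor of activated T cells, read 10804 against 2574 (4.20-fold) and 7042 in CD25hi Foxp3+ cells. Pdcd1 (PD-1), an inhibitory receptor, read 569 against 160 (3.56-fold), and its ligand gene Pdcd1lg2 read 232 against 30.6 (7.58-fold). Cd80, a ligand of both CD28 and CTLA-4, read 89.7, 5.97-fold above its reading in CD25- Foxp3- cells, which was under the filter. Cd28 itself, at 3602 against 3108, was not 2-fold apart.

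TNF and TNF receptor family genes went both ways. Of 20 measured, 6 were at least 2-fold higher and 4 lower, which are 30% and 20%, beside 9.09% and 6.88% of all measured genes. The receptors Tnfrsf1b (TNFR2), at 2289 against 274 (8.35-fold), and Tnfrsf18 (GITR), at 2672 against 607 (4.40-fold), were higher, as was the ligand Tnfsf11 (RANKL), at 1184 against 304 (3.90-fold). Lower were the death ligand Fasl, at 77.5 against 461 (5.95-fold), the CD30 ligand Tnfsf8, at 63.3 against 272 (4.30-fold), Tnfsf14 and the receptor Tnfrsf14 (HVEM), at 60.2 against 218 (3.61-fold). Fasl is also made by CD8 T and NK cells, and Eomes is itself on the list of their markers. The part of such cells in the readings of either gene was not tested.

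Of 18 measured chemokine receptors and chemokines, of 26 with a probe set, 9 were at least 2-fold higher and 1 lower. Of the 11 that reached 32.5 on both arrays, 6 were higher and 1 lower. Ccr6, a receptor of barrier tissues, read 1913 against 245 (7.79-fold), with 1862 and 2419 in CD25hi Foxp3+ and CD25+ Foxp3- cells, so the CD25- Foxp3- array was the low one. Ccr8, a receptor of skin and activated Treg cells, read 194 against 19.2 (10.1-fold), and Ccr4, another skin receptor, read 88.5 against 7.07, under the floor, at least 8.75-fold. Ccrl2, an atypical receptor for chemerin, read 206 against 21.4 (9.65-fold). Cxcr5, which leads cells into B cell follicles, read 992 against 286 (3.47-fold) and 402 and 335 in the other populations. Outside the list, Gpr15, a homing receptor of the colon, read 103 against 9.63, at least 10.2-fold. Ccr7, which draws T cells into lymph nodes, was the lower one, at 1327 against 4937 (3.72-fold). Cxcr6, a receptor of effector cells in tissue, read 128 against 249 (1.93-fold lower), and Cx3cr1 read 27.6 and 28.3, both under the filter. The median log2 difference of this list, 0.83, depended on the filter and lay between 0.10 and 1.92 over the settings tried. Ccr9, the receptor of the small intestine, read 993 against 239 but went the other way in its probe set with the smallest difference.

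Integrins and adhesion molecules were higher in 8 and lower in 2 of 22 measured members. Itgb1, the beta 1 chain shared by the very late antigens, read 6527 in the CD25lo Foxp3+ population, 940 in CD25- Foxp3-, 1793 in the CD25hi Foxp3+ and 2345 in the CD25+ Foxp3- population, and its second probe set read 3025 against 249. Alcam, a ligand of CD6, read 243 against 44.6 (5.45-fold), and Icam1, a ligand of LFA-1, read 903 against 317 (2.85-fold). Cd44, the hyaluronan receptor of activated and memory cells, read 3260 against 1175 (2.77-fold). Lower were Itgb3, the beta 3 chain of the vitronectin receptor, at 366 against 1125 (3.07-fold), and Icam2, at 1031 against 2682 (2.60-fold).

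Calcium-binding S100 and annexin genes and the galectins were at least 2-fold higher in 7 of 14 measured members and lower in none, of 19 with a probe set. S100a4, a small cytoplasmic protein that binds nonmuscle myosin and is known from memory T cells, read 9154 in CD25lo Foxp3+ cells, 572 in CD25- Foxp3-, 2634 in the CD25hi Foxp3+ and 2205 in the CD25+ Foxp3- population. S100a6 read 4516 against 326 (13.8-fold), and 1503 and 614 in the other populations. S100a10 and Anxa2, which form a complex at the cell membrane, read 14607 against 4838 (3.02-fold) and 2715 against 702 (3.87-fold). Lgals1, the secreted lectin galectin-1, read 13474 against 3963 (3.40-fold). For these 5 genes the CD25lo Foxp3+ array was the highest of the 4. Anxa1, at 147 against 146, and Anxa5, at 1498 against 1412, were nearly equal.

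Other genes of effector and memory T cells were mixed. Of 23 measured, 7 were higher and 4 lower. Ahnak, a large scaffold protein that binds the S100a10 and Anxa2 complex, read 3800 against 374 (10.2-fold), and Il2rb, the beta chain of the IL-2 receptor, read 459 against 68.5 (6.70-fold). Lower were Fasl, Eomes, Nkg7, a granule membrane protein of cytotoxic cells, at 265 against 572, and Plac8, at 140 against 290.

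Genes of naive and quiescent T cells were lower in part. Of 27 measured, 12 were at least 2-fold lower and 2 higher, with a median log2 difference of -0.73, and each measured member reached 32.5 on both arrays. Igfbp4, an insulin-like growth factor binding protein, read 412 in CD25lo Foxp3+ and 13217 in CD25- Foxp3- cells (32.1-fold lower), with 1266 and 1996 in CD25hi Foxp3+ and CD25+ Foxp3- cells. Dapl1, a marker of resting T cells, read 159 against 3909 (24.6-fold lower). Pde3b, which breaks down cyclic AMP, read 281 against 6467 (23.0-fold lower). The CD25- Foxp3- array was the highest of the 4 for all 3 genes.

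The transcription factors of the naive list differed less than those leading genes. Lef1, a partner of beta-catenin, read 491 against 2026 (4.12-fold lower), and Satb1, a chromatin organiser, read 2263 against 6746 (2.98-fold lower). Bach2, a repressor that keeps T cells from effector fates, read 593 against 1601 (2.70-fold lower). Klf2, which drives genes of lymph node recirculation, read 1267 against 3040 (2.40-fold lower), yet its target S1pr1, the receptor by which cells leave lymph nodes, read 606 against 688. Il7r, the receptor chain for the survival cytokine IL-7, read 3465 against 6659 (1.92-fold lower). Foxo1, at 2909 against 2617, and Ets1, at 11844 against 8128, were not 2-fold apart. The 2 higher members were Ccr9 and Tob1, an inhibitor of proliferation, at 477 against 205.

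**Figure D4:**
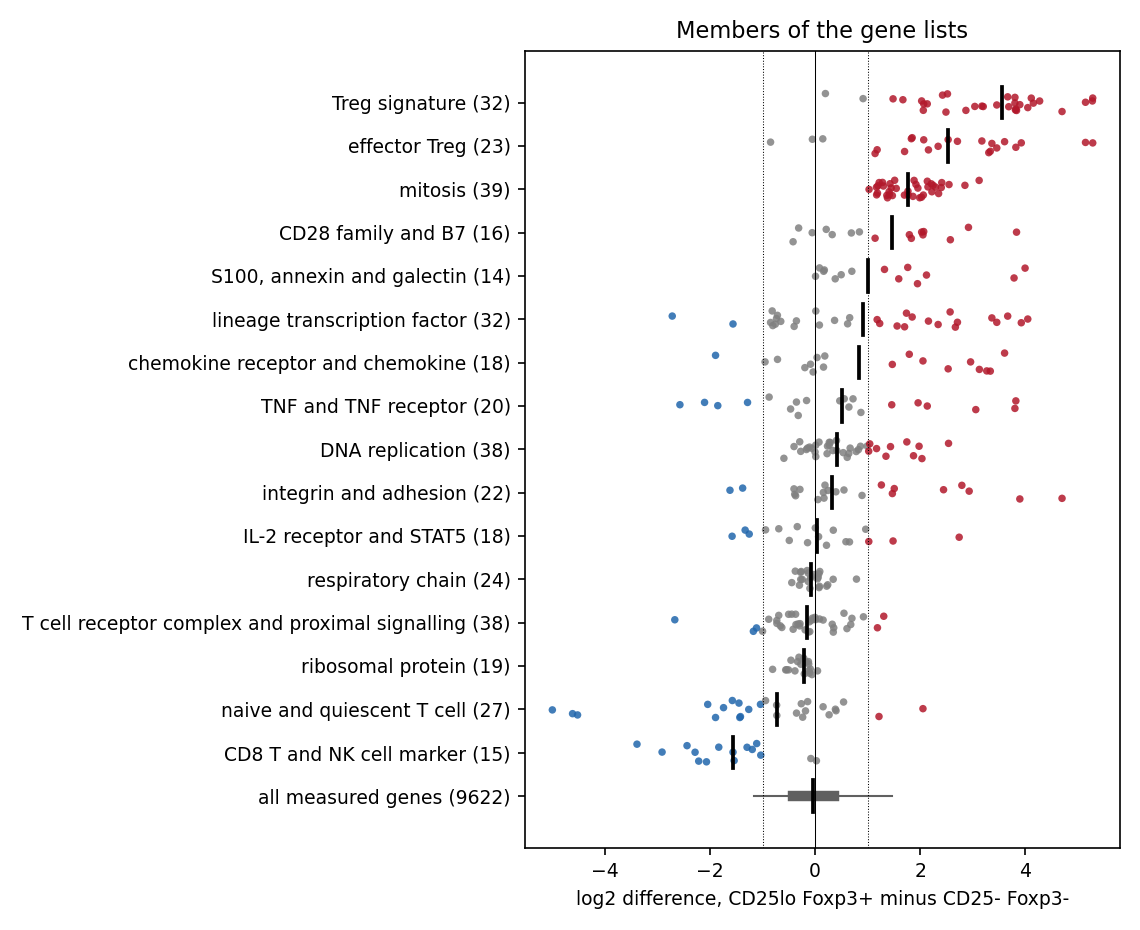
log2 difference between CD25lo Foxp3+ and CD25- Foxp3- cells for the measured members of 16 gene lists, 1 point a gene, with the number measured in brackets and a black bar at the median. Points past the dotted lines are at least 2-fold higher (red) or lower (blue), and the bottom row gives the median, the middle 50% and the middle 90% of all 9622 measured genes. The Treg signature has the highest median, 3.56, and the CD8 T and NK cell markers the lowest of those drawn, -1.56.

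Genes of mitosis were higher in CD25lo Foxp3+ cells in every measured member. The list held 40 genes, 39 had a probe set and passed the filter, and 39 were at least 2-fold higher, between 2.04-fold and 8.72-fold by the probe sets used, with a median log2 difference of 1.77. Over the processing settings tried, the count lay between 34 and 39, and where both arrays had to reach 32.5 it was 34 of 34. Mki67, which coats mitotic chromosomes and marks cycling cells, read 4178 against 818 (5.11-fold). Aurkb, the kinase of the chromosomal passenger complex, read 134 against 15.3 (8.72-fold), and 77.5 against 30.9 (2.51-fold) by its other probe set. Bub1, a kinase of the spindle checkpoint, read 213 against 36.3 (5.86-fold). Cdk1 and Ccnb2, kinase and cyclin of entry into mitosis, read 357 against 85.4 (4.18-fold) and 595 against 121 (4.91-fold). Top2a, which untangles sister chromosomes, read 1687 against 434 (3.89-fold). The smallest difference was in Spc25, a kinetochore protein, at 161 against 79.0.

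Genes of DNA replication differed less. Of 38 measured, 10 were at least 2-fold higher and none lower, with a median log2 difference of 0.41, and of the 33 that reached 32.5 on both arrays 7 were higher. Dtl, which directs replication licensing factors to destruction, read 167 against 28.6 (5.82-fold), Uhrf1, which copies DNA methylation to the new strand, 283 against 69.0 (4.10-fold), and Rrm2, the regulated subunit of ribonucleotide reductase, 2425 against 661 (3.67-fold). By the second of its 5 probe sets Dtl read 90.8 against 67.6, under 2-fold, and Uhrf1 read 73.6 against 41.7 by another probe set. Ccne2, Tk1, Gins2, Pola1, Cdc45, Mcm10 and Pole were the other 7. The Mcm subunits of the replicative helicase named here lay under 2-fold by the probe sets used, with Mcm6 at 2708 against 1361 (1.99-fold, and 3.12-fold by its second probe set), Mcm5 at 2196 against 1514, Mcm2 at 772 against 804 and Mcm7 at 4390 against 4722. Pcna, the sliding clamp, read 8262 against 5404 (1.53-fold).

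The 2 lists also differ in the letters of their promoters. Genes expressed in mitosis are known to be bound by the DREAM complex at the cell cycle homology region (CHR) and by NF-Y at CCAAT boxes. Replication genes are known E2F targets. Promoter windows of 300 bases, from 250 before to 50 after the start, were taken from RefSeq (build GRCm38.p6) for 32 of the 39 mitosis genes, 32 of the 38 replication genes and 7895 of the measured genes, and searched on both strands. A gene with several windows counted once if any of them matched. By windows instead of genes, the CHR shares given next were 69.4%, 10.8% and 12.0%. The CHR letters TTTGAA stood in windows of 23 mitosis genes (71.9%), 4 replication genes (12.5%) and 14.3% of all measured genes. CCAAT stood in 23 (71.9%), 19 (59.4%) and 43.2%, and both motifs together in 20 (62.5%), 3 (9.38%) and 5.79%. For E2F the letters TTCCCGC were searched, together with a form written TTGGCGC and another written TTCGCGC, which can overlap each other on opposite strands. At least 1 of the 3 forms stood in 6 (18.8%), 20 (62.5%) and 17.5%. CHR and CCAAT were added after the values were seen, and a match describes letters only.

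The 3 mitosis genes below were chosen from those whose printed stretch holds both motifs, so finding both in each was fixed beforehand. Their 120 bases before the start follow, written 5′ to 3′ on the strand of the gene. Capitals mark the letters of both motifs, on either strand, to show how they lie in the stretch:
Cdk1, chr10:69352913-69353032, minus strand: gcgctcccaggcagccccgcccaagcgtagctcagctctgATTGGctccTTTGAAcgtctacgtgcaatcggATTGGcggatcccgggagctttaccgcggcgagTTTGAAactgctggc
Kif11, chr19:37376262-37376381, plus strand: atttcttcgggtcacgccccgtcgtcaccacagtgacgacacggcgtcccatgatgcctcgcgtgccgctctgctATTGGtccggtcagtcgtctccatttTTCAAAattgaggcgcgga
Top2a, chr11:99024190-99024309, minus strand: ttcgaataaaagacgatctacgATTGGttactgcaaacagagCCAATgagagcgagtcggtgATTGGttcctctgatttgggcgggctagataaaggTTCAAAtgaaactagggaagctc

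For comparison, the same stretch of 3 replication genes is given, with the E2F letters in capitals. These genes were likewise chosen from those whose stretch holds an E2F match. Dtl was 5.82-fold higher, Mcm6 1.99-fold and Rrm1, the large subunit of ribonucleotide reductase, 1.82-fold, at 1631 against 895. In Mcm6 each capital run holds 2 overlapping matches:
Dtl, chr1:191575545-191575664, minus strand: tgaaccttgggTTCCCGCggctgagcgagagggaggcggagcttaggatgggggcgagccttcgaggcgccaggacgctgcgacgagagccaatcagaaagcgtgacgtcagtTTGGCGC
Mcm6, chr1:128359706-128359825, minus strand: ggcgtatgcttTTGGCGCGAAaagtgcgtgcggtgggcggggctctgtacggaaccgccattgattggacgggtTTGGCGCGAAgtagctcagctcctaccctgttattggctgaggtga
Rrm1, chr7:102441575-102441694, plus strand: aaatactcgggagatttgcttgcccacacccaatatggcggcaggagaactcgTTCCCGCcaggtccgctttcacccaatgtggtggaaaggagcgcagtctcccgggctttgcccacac

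Inhibitors of the cell cycle were also higher in 4 of 11 measured members and lower in none. Cdkn2c, which blocks CDK4 and CDK6, read 602 against 111 (5.40-fold), and Rbl2 (p130), the pocket protein of the resting DREAM complex, read 3449 against 774 (4.46-fold). Ccng2, a cyclin of cell cycle exit, read 1724 against 678 (2.54-fold). The probe sets of Cdkn1b (p27) went opposite ways, at 612 against 309 (1.98-fold higher) and 79.4 against 163 (2.05-fold lower).

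Apart from CD25 itself, genes of the IL-2 receptor and of STAT5, the factor it activates, were balanced. Of 18 measured, 3 were higher and 3 lower, with a median log2 difference of 0.04. Higher were Il2rb, Socs2 and Il15ra, and lower were the survival gene Bcl2, at 732 against 2187 (2.99-fold), Osm and Pim2. Bcl2 read 2653 in the CD25hi Foxp3+ and 1918 in the CD25+ Foxp3- population, so the CD25lo Foxp3+ array was the low one of the 4. Cish, a STAT5 target that restrains cytokine receptors, read 610 against 313 (1.95-fold) and 1656 in CD25hi Foxp3+ cells.

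Of 23 cytokine genes with a probe set 14 passed the filter, 5 of them higher and 3 lower. Of these, 7 reached 32.5 on both arrays, with 2 higher and 2 lower, and Il10, Csf1, Lif and Il4 were among those under it on one array or both. Besides Il10, Csf1, the growth factor of macrophages, read 147 against 15.5 (9.47-fold), Ebi3, a subunit of IL-35 and IL-27, 239 against 41.6 (5.74-fold), and Tgfb1 172 against 79.2 (2.17-fold). Lif was the fifth. Lower were the helper cytokines Il4, at 10.8 against 72.0 (6.64-fold), and Il21, at 59.8 against 122 (2.04-fold), with Osm.

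Cytokine receptors divided evenly, with 5 higher and 5 lower of 29 measured. The receptors of TGF-beta went both ways. Tgfbr1, the signalling chain, read 2664 against 809 (3.29-fold higher), whereas Tgfbr3, the coreceptor betaglycan, read 114 against 1929 (16.9-fold lower). Il12rb1, a chain of the IL-12 and IL-23 receptors, read 204 against 32.6 (6.24-fold), and Il10ra read 281 against 90.9 (3.09-fold). Ifngr2, the chain that limits interferon gamma signalling in T cells, read 65.0 against 288 (4.43-fold lower).

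Genes of the T cell receptor pathway lay mostly within 2-fold. Of 38 genes of the receptor complex and its near signalling, 2 were higher and 3 lower, with a median log2 difference of -0.16. Those are 5.26% and 7.89%, beside 9.09% and 6.88% of all measured genes. Themis, a T cell adaptor that tunes receptor signals, read 235 against 1496 (6.37-fold lower). Lcp2 (SLP-76) read 3638 against 1597 (2.28-fold higher), and the kinase gene Txk, at 323 against 645, lay at the 2-fold boundary. Of 33 early response genes 5 were higher and 2 lower, which are 15.2% and 6.06%. The largest difference was in Dusp4, a phosphatase of MAP kinases, at 1840 against 120 (15.4-fold), while the related Dusp10 read 159 against 559 (3.51-fold lower). Egr2, a factor induced by receptor signals, read 1279 against 432 (2.96-fold), and Myc 204 against 466 (2.29-fold lower).

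Genes of G protein signalling were higher in 9 and lower in 2 of 33 measured members, and in 6 and 2 of the 29 that reached 32.5 on both arrays. Rgs16 and Rgs1, which shorten G protein signals, read 619 against 75.2 (8.24-fold) and 2748 against 739 (3.72-fold). Gnaq, a G protein alpha subunit, read 253 against 32.4 (7.83-fold), Ptger2, a prostaglandin E2 receptor, 384 against 54.7 (7.02-fold), and P2rx7, an ATP-gated channel, 989 against 325 (3.05-fold). Gpr83, a receptor abundant in Treg cells, read 1350 against 323 (4.17-fold) and 4426 in CD25hi Foxp3+ cells. Vipr1, the receptor for vasoactive intestinal peptide, read 46.4 against 766 (16.5-fold lower). Genes of adenosine and cyclic AMP were 4 higher and 4 lower of 23, with Nt5e and Crem, at 423 against 144, on the higher side and the phosphodiesterases Pde3b, Pde4d, at 121 against 489, and Pde7a, at 386 against 1110, on the lower side.

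Several enzymes that add sialic acid were lower. Of 25 measured genes of sialyl transfer and glycans 6 were lower and 3 higher, and of the 20 that reached 32.5 on both arrays 6 were lower and none higher. St6galnac2 read 63.2 against 598 (9.46-fold lower), St3gal6 33.1 against 242 (7.30-fold lower) and St8sia1, which makes the ganglioside GD3, 125 against 659 (5.27-fold lower). Higher was Neu3, a sialidase of gangliosides, at 88.2 against 18.2 (4.84-fold), with Gcnt1, which branches the O-glycans of selectin ligands, at 102 against 22.4 (4.54-fold), and Fut7. St6galnac1 was lower by the probe set used but not by its probe set with the smallest difference.

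Cell-surface guidance molecules went both ways, with 4 higher and 2 lower of 13 measured (30.8% and 15.4%). Sema4a, a semaphorin that binds Treg neuropilin 1, read 69.6 against 497 (7.14-fold lower) and 26.5 against 619 by its second probe set, while Sema3d read 88.4 against 13.8 (6.39-fold higher). Granule and protease genes had 6 higher and 5 lower of 27. Cst7, an inhibitor of cathepsins, read 1867 against 395 (4.72-fold) and Adam8, a surface protease, 149 against 24.3 (6.12-fold), whereas perforin, Prf1, read 32.6 against 176 (5.42-fold lower) and Ctsw 213 against 1040 (4.87-fold lower). Prf1 and Ctsw also mark CD8 T and NK cells, whose markers were lower on the same array.

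Of the interferon response genes, 4 were higher and 4 lower of 36. Those are 11.1% each way, beside 9.09% and 6.88% of all measured genes. Higher were Iigp1, Gbp3, Gbp6 and Gbp7, which encode GTPases, led by Gbp3 at 3331 against 455 (7.33-fold). Gbp2, of the same family, read 1750 against 2248. Lower were Oas2, Oasl1, Oasl2 and Ifit1, led by Oas2, a sensor of viral RNA, at 59.7 against 454 (7.61-fold), while the related Oas1a read 568 against 286 (1.99-fold higher).

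Among genes of survival and death, 4 were higher and 2 lower of 21 (19.0% and 9.52%). Pmaip1 (Noxa), a killer protein of the BCL-2 family, read 341 against 62.5 (5.46-fold), Bid 370 against 94.0 (3.94-fold), and the inflammatory caspase genes Casp4 and Casp1 173 against 50.3 and 741 against 356. Lower were the death ligand Fasl and the survival gene Bcl2. Of NF-kappaB genes 2 were higher, Rel at 130 against 47.4 (2.74-fold) and Nfkbiz, whose second probe set was lower, and 1 lower of 18, Map3k14, the kinase of the noncanonical pathway, at 82.0 against 294 (3.59-fold). For NF-kappaB those are 11.1% and 5.56%, beside 9.09% and 6.88% of all measured genes.

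Signalling by TGF-beta and SMAD had 6 higher and 4 lower of 23, with Bmpr2 at 316 against 92.9 (3.40-fold) and the corepressor Tgif1 at 338 against 122 (2.77-fold). Of 15 genes of Wnt, TCF and Notch none was higher and 3 (20%) were lower. Among these was Dtx1, a Notch target tied to T cell anergy, at 1236 against 2837 (2.30-fold). Of 8 GIMAP GTPases, Gimap7 alone was 2-fold apart, at 10495 against 3577 (2.93-fold higher). Nuclear receptor and vitamin genes were 2 higher and 1 lower of 10.

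Of 18 glycolysis genes 4 were higher and 1 lower (22.2% and 5.56%). Among the higher were the glucose transporter Slc2a3 at 2964 against 866 (3.42-fold) and hexokinase Hk1 at 1213 against 354 (3.43-fold). The lower one was Pdk1, a kinase of pyruvate dehydrogenase, at 568 against 1356 (2.39-fold). None of 18 genes of cholesterol synthesis, 19 ribosomal proteins and 24 of the respiratory chain was 2-fold apart by the probe sets used. For Hmgcs1, at 2004 against 3253, other probe sets conflicted, at 639 against 220 (2.90-fold higher) and 45.9 against 107 (2.33-fold lower). By another probe set Lss read 14.1 against 40.7 (2.89-fold lower). Of 23 genes of amino acid transport and mTOR 2 were higher, with Sesn1, a restrainer of mTOR, at 5847 against 1857 (3.15-fold), and 3 lower, with the arginine transporter Slc7a1 at 637 against 1866 (2.93-fold) and Pik3ip1, an inhibitor of PI3 kinase, at 968 against 2636 (2.72-fold). The unfolded protein response had 2 higher of 22 (9.09%), which is the share of all measured genes. Heat shock genes had 1 lower of 11 (9.09%, beside 6.88% of all), Hspa1a at 433 against 1039.

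Outside the lists, the genes with the widest differences upward had varied known roles. Nrn1, neuritin, a surface protein known from neurons and from anergic T cells, read 2091 against 75.4 (27.7-fold) and 1265 and 643 in CD25hi Foxp3+ and CD25+ Foxp3- cells. Atp6v0d2, a subunit of the proton pump of lysosomes, read 334 against 13.3 (25.1-fold), Sccpdh 443 against 18.5 (23.9-fold) and Nxpe4 467 against 20.0 (23.3-fold). Rapgef5, an exchange factor for Rap GTPases, read 502 against 23.0 (21.8-fold), and Osbpl3, an oxysterol-binding protein, 1207 against 56.4 (21.4-fold). For these 6 genes CD25lo Foxp3+ cells read highest of the 4 populations. Eea1, an early endosome tether, read 977 against 59.3 (16.5-fold) with 275 in the CD25hi Foxp3+ and 748 in the CD25+ Foxp3- population. Of the genes at the floor in CD25- Foxp3- cells, Neb, the muscle filament nebulin, read 330 (at least 32.6-fold), Myo1e, a class I myosin, 227 (at least 22.4-fold) and Sdc4, a heparan sulfate proteoglycan, 134 (at least 13.2-fold).

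The widest differences downward held transporters, enzymes and surface proteins. Tdrp read 58.1 against 2200 (37.9-fold lower), and Slc16a5, a monocarboxylate transporter, 17.2 against 651 (37.8-fold lower). Pdlim4, an adaptor of the actin skeleton, read 455 in CD25- Foxp3- cells and 6.22, under the floor, in CD25lo Foxp3+ cells (at least 45.0-fold lower). Atp8b4, a lipid flippase, read 42.0 against 713 (17.0-fold), App, the amyloid precursor protein, 35.7 against 530 (14.8-fold), and Adh1, an alcohol dehydrogenase, 55.5 against 688 (12.4-fold). CD25- Foxp3- cells read highest of the 4 for these genes, with 304 for Tdrp, 201 for Atp8b4 and 183 for App in CD25+ Foxp3- cells. Mzb1, a chaperone abundant in plasma cells, at 34.9 against 414, and the immunoglobulin gene segment Igkv15-103, at 9.92 against 173 (at least 17.1-fold), were also lower, beside the B cell markers.

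The pair of arrays left, CD25hi Foxp3+ against CD25+ Foxp3- cells, shares no array with the comparison, though all 4 RNAs come from 1 pool of mice. In that pair 464 genes (4.82%) were at least 2-fold higher and 658 (6.84%) lower in the Foxp3+ population. With the sort genes left out, 873 genes were higher in CD25lo Foxp3+ cells, and 154 of them (17.6%) were also at least 2-fold higher in CD25hi Foxp3+ cells, against 4.80% of all genes. These 154 are 33.3% of the 462 higher in that pair. In the opposite direction stood 104 (11.9%). Of the 662 lower genes, 137 (20.7%) were lower there too, which are 20.8% of the 658, and 39 (5.89%) were higher. From 4-fold up, 70 of 233 higher genes (30.0%) and 58 of 112 lower genes (51.8%) went the same way by 2-fold. Across 9620 genes, which are not independent, the log2 differences of the pairs had a Pearson r of 0.12.

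The groups of genes differed in how they stood in this pair. Of the 32 Treg signature genes 24 were also at least 2-fold higher there and none lower, with a median log2 difference of 1.35. Of the 39 mitosis genes none was higher and 3 were lower, with a median of -0.34. Mki67 read 2923 in the CD25hi Foxp3+ and 3698 in the CD25+ Foxp3- population, so the CD25- Foxp3- array, at 818, was the low one of the 4. Of the 38 replication genes none was higher and 10 were lower, with a median of -0.76, and Pcna read 7299 against 12828. The naive T cell genes, of which 12 were lower between the compared arrays, had 3 higher and 2 lower in this pair.

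**Figure D5:**
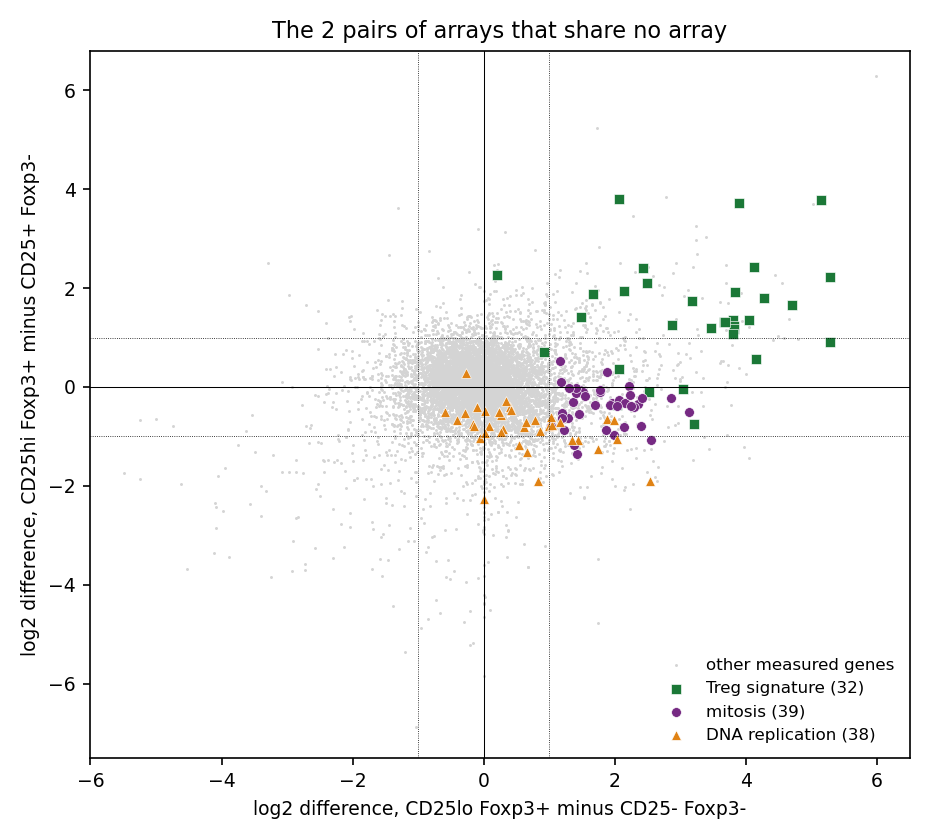
log2 difference of CD25lo Foxp3+ minus CD25- Foxp3- cells (x axis) and of CD25hi Foxp3+ minus CD25+ Foxp3- cells (y axis) for 9622 measured genes, with 3 lists coloured and dotted lines at 2-fold. Treg signature genes lie mostly in the upper right, while mitosis genes lie to the right of 2-fold on the x axis and around or under 0 on the y axis.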

How the data were processed

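Total RNA of 4 sorted mouse CD4+ T cell populations, 1 per array, was carried through 2 cycles of amplification and hybridised to Affymetrix Mouse Genome 430 2.0 arrays, per the labels' protocols. Each deposited value is a linear-scale intensity of 1 probe set. The authors' probe summary, background correction and normalization are not given in the sources used here. Column medians lay between 15.03 and 15.6, so the deposited scale was kept.

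Of 45101 probe sets, 64 controls were left out, 34945 had 1 gene in the platform annotation, 932 had several and 9160 were not listed with one. By Entrez identifier 34741 matched the RefSeq table of GRCm38.p6. Readings under the 40th percentile of all values, 10.1, were set to it, and probe sets were kept whose highest reading reached the 60th percentile, 32.5. A gene was read from its kept probe set with the highest mean log2 intensity. Differences are of log2 intensities, CD25lo Foxp3+ minus CD25- Foxp3-. With 1 array a group no test was made, and 2-fold was the size rule. The counting was tested on simulated data with known differences. Python 3.11.15, pandas 2.3.3 and numpy 2.4.6 were used.

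The comparison and the 46 gene lists, which share genes, were chosen with earlier results of these data known, and 3 lists in the closing section and the CHR and CCAAT motifs were added after the values were seen. Named are the sort genes, the 15 genes with the widest difference in each direction above the floor, the 10 at the floor, the 10 whose lower array reached the filter and up to 8 members of each list. Other list members named, such as those within 2-fold, were chosen after their values were seen. The 336 measured genes known by clone symbols are in the counts but unnamed. Alternatives were the floor, the filter, the choice of probe set, scaling and leaving out markers of other cells. A protein comparison of the S100 genes was planned and was not analysed here.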

Additional observations from a re-analysis of the deposited data

Results flagged for a closer look

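For 20 of the 356 genes named and compared, the sign at 2-fold or more was opposite in the pair of CD25hi Foxp3+ against CD25+ Foxp3- cells. Of the 356, 246 were past 2-fold between the compared arrays. Over all measured genes but the sort genes, 104 of 873 higher genes (11.9%) and 39 of 662 lower genes (5.89%) were opposite in this way. Each sign of the 20 genes rests on 1 array a side, and the difference between the pairs was not tested. Higher in CD25lo Foxp3+ than in CD25- Foxp3- cells and lower in the other pair were the endosome gene Eea1 (log2 difference 4.04, and -1.44 in the other pair), the transcription factor genes Maf (3.37 and -1.01), Tbx21 (1.74 and -3.47) and Atf3 (1.03 and -1.23), and the cytokine genes Tnfsf11 (1.96 and -1.86) and Lif (1.15 and -1.73). The same held for the surface and glycan genes Alcam (2.45 and -1.28), Lgals3 (1.32 and -2.15), Adam8 (2.61 and -1.83) and Gcnt1 (2.18 and -1.27), and for the caspase genes Casp4 (1.79 and -1.34) and Casp1 (1.06 and -1.79). Cell cycle genes of this kind were Dtl (2.54 and -1.91), Uhrf1 (2.04 and -1.06), Ccne2 (1.75 and -1.26), Gins2 (1.44 and -1.08), Pola1 (1.35 and -1.07) and Bub1 (2.55 and -1.08). In these genes CD25+ Foxp3- cells read above CD25- Foxp3- cells. By their other probe sets Maf, Alcam and Gcnt1 lay within 2-fold in the other pair. By another probe set Dtl read 95.3 against 102 there, within 2-fold, but 18.3 against 56.1 by a dimmer one. Lower here and higher there were the interferon response gene Ifit1 (-1.54 and 1.04) and the adenylate cyclase gene Adcy6 (-1.63 and 1.55).

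Of 45 list medians, 5 had opposite signs in the pairs and lay at least 0.3 from 0 in both. These were mitosis (1.77 and -0.34), DNA replication (0.41 and -0.76), lineage transcription factors (0.92 and -0.52), chemokine receptors and chemokines (0.83 and -0.47) and effector and memory T cell genes (0.39 and -0.44). The difference between the pairs was not tested for these lists either.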

How the results depend on the processing

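Over the settings tried, between 604 and 940 genes were at least 2-fold higher and between 500 and 705 lower. Of 246 named genes past 2-fold, 199 stayed past it in each setting in which they were measured. The genes that reversed were Ccr9 (log2 difference -0.19), Epcam (-0.32) and St6galnac1 (0.32), each with the gene's probe set of smallest difference. With that setting the chemokine median became 0.17 and the B cell marker median -0.60. With no filter, the medians became 0.10 for chemokine receptors and chemokines, 0.84 for the CD28 and B7 list, -0.41 for B cell markers and -0.15 for red cell markers. Filtering on the 2 compared arrays gave 1.79 for the chemokine list and 0.48 for gamma delta T and NKT cell markers, and filtering on the mean gave 1.92 and 0.48. Where both arrays had to reach the filter, a setting added after seeing the data, the medians were 1.47, 0.48, 0.77 for the CD28 and B7 list with 5 genes higher, and -0.59 for TGF-beta and SMAD. With the floor at the 60th percentile the red cell median was -1.68. A higher filter tests fewer genes, and otherwise the cause was not tested. No paired analysis was possible because each group has 1 array and the labels carry no replicate numbers. No array could be left out. Folds against readings near the floor are uncertain in size and rank.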

Other observations

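Genes that make ribosomes, as distinct from ribosomal proteins, lay below 0 in 29 of 31 measured members, and 7 were at least 2-fold lower in CD25lo Foxp3+ cells and none higher, with a median log2 difference of -0.70. This list, like the others in this section, was chosen after the values were seen. Urb1 read 57.6 against 275 (4.78-fold lower), Rrp12 104 against 363 (3.48-fold lower), Utp20, a processome component, 358 against 1108 (3.10-fold lower) and Nop56, a core protein of box C/D particles, 1243 against 3210 (2.58-fold lower). In the pair of CD25hi Foxp3+ and CD25+ Foxp3- cells the median was also -0.70, with 7 of 31 lower and none higher.

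Of 18 cyclic GMP genes with a probe set 7 were measured, 3 higher and 3 lower. Of the 4 that reached 32.5 on both arrays 1 was higher and 2 were lower, while Gucy1a1, Gucy1b1 and Pde5a were under it on 1 array. Gucy1a1 and Gucy1b1, the 2 subunits of the nitric oxide receptor that makes cyclic GMP, read 460 against 27.7 (16.6-fold) and 200 against 22.6 (8.83-fold), and Pde2a, a phosphodiesterase that cyclic GMP stimulates, read 2620 against 1305 (2.01-fold). Lower were Pde5a, which breaks cyclic GMP down, at 12.1 against 187 (15.4-fold), Pde3b, which cyclic GMP inhibits, at 281 against 6467 (23.0-fold), and the gated channel gene Cnga1, at 47.3 against 531 (11.2-fold).

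Condensin and cohesin genes were higher in 8 and lower in none of 20 measured members, and in 6 and none of the 17 that reached 32.5 on both arrays. Ncapg2, a subunit of condensin II, read 230 against 25.2 (9.12-fold), with 179 in the CD25hi Foxp3+ and 496 in the CD25+ Foxp3- population. Ncapg and Ncaph, subunits of condensin I, read 390 against 66.2 (5.89-fold) and 497 against 111 (4.47-fold), and the cohesin subunit Rad21 read 2483 against 1195 (2.08-fold).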
